A study of Gallus gallus with 6 samples.

Results

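The nuclear genome encodes most of the proteins of the mitochondrial respiratory chain, and the genes described here are those members as they were measured in chick wing explants after inhibition of Fgf signalling. They were taken as the annotated genes outside the mitochondrial chromosome whose symbol was SDHA, SDHB, SDHC or SDHD or began with NDUF, UQCR, ATP5 or COX followed by a digit of 4 to 8. The rule used names only and no measured value. It found 72 of the 21062 genes: 38 of complex I, 3 of complex II, 8 of complex III, 10 of complex IV and 13 of complex V. Of the 38 genes of complex I, 6 encode core subunits, 25 accessory subunits and 7 assembly factors of the NDUFAF series. NDUFA4 bears a complex I name but encodes a subunit of complex IV, and it was counted there. Subunits whose rows do not carry such a symbol are not part of these counts. No row was found under the symbols NDUFV1, of complex I, SDHD, of complex II, or CYC1, a nuclear gene of complex III outside the rule.

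The explants were the posterior part of wing buds, dissected at stage HH20 with the polarising region and cultured for 48 h, and their medium held either 5 µM SU5402, which inhibits Fgf receptors, or the solvent DMSO alone. There were 3 SU5402 libraries and 3 DMSO libraries, and each was made from the messenger RNA of several pooled whole explants. All cell types of the explant therefore contribute to each value, and SU5402 is known to act on the Vegf receptor kinase as well as on Fgf receptors. The comparison asks how transcripts of the respiratory chain stood once Fgf signalling was attenuated.

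Complexes I and II take electrons from NADH and succinate and pass them to ubiquinone. Complex III hands them on to cytochrome c, and complex IV, cytochrome c oxidase, uses them to reduce oxygen. Complexes I, III and IV pump protons across the inner mitochondrial membrane, and complex V, the ATP synthase, lets them flow back to make ATP. Subunits of complexes I, III, IV and V come from both the nuclear and the mitochondrial genome, whereas complex II is wholly nuclear. Working muscle is a tissue with a high demand for them.

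Levels below are normalized read counts, that is, reads on a gene divided by a factor for the depth of its library, or FPKM, which also divides by gene length. Reads on genes numbered 29390751 to 37373688 in the SU5402 libraries and 25849833 to 44261768 in the DMSO libraries. The members were well covered, with 402 to 44142 reads per gene and library. Fold changes are of SU5402 over DMSO, were taken on log2 of the normalized count plus 1, and are given with their standard error (SE). They were tested with limma over 16324 genes, with Benjamini-Hochberg adjustment over all of them, and a gene was called at an adjusted p below 0.05. Replicates are separate experiments by the study's methods.

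Respiratory chain transcripts were abundant under both treatments. Over all 6 libraries the members had a median of 101 FPKM, against 9.65 FPKM for all genes tested. The median member of complex I had 68.0 FPKM, that of complex II 69.7, of complex III 130, of complex V 145 and of complex IV 270. Complex I here includes its 7 assembly factors, whereas those of complex IV have names outside the rule. Complex IV thus stood highest, and its small membrane subunit COX6C, at 496 FPKM, was the highest of the 72 genes. The lowest members were NDUFAF4, an assembly factor of complex I, at 10.8 FPKM, and ATP5S, which encodes a factor associated with the ATP synthase, at 11.5 FPKM. The most abundant member of complex I was the accessory subunit NDUFB7 at 273 FPKM. In complex III the hinge protein UQCRH led at 246 FPKM and the small subunit UQCRQ was lowest at 31.0 FPKM. That order depends on the annotated gene length. UQCR11, of 502 bases, had 120 FPKM from fewer mean normalized counts than UQCRQ, of 2162 bases. The catalytic beta subunit ATP5F1B led complex V at 366 FPKM. Within complex II the 3 genes lay closer together, between 55.9 FPKM for SDHA and 122 FPKM for SDHC.

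**Figure D1:**
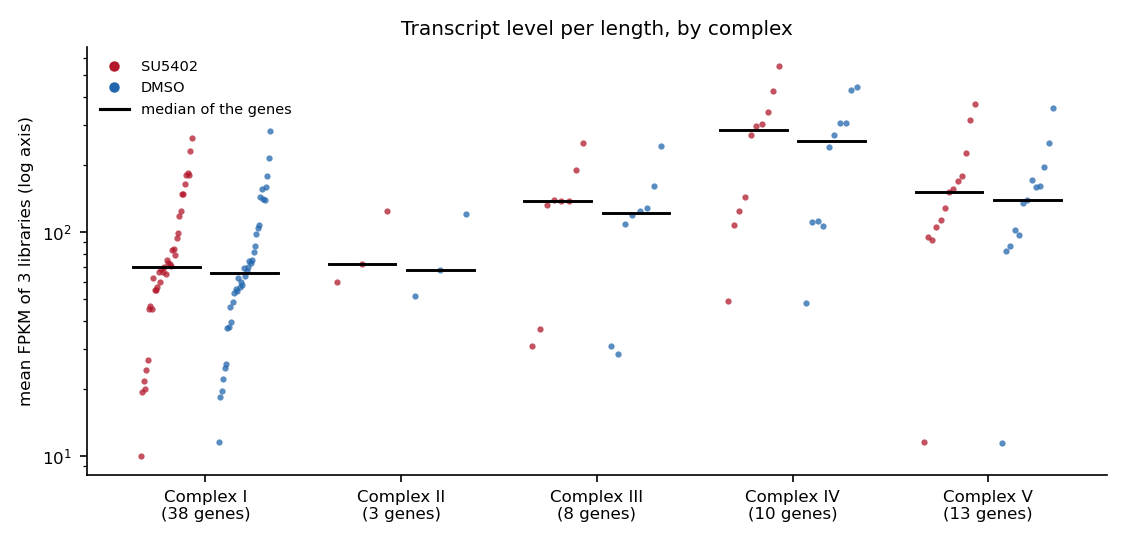
Mean FPKM of the 3 libraries of each treatment on a log axis, with one point per gene, SU5402 left of DMSO for each complex, and a black line at the median of the genes. The genes of one complex spread far more widely than the treatments differ. Complex I, assembly factors included, runs between 10.8 and 273 FPKM over all libraries.

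Between the treatments, the respiratory chain genes moved little, and those that passed the test all rose. With SU5402, 10 of the 72 genes were called higher (13.9%), close to the 14.4% of all genes tested. None was called lower by limma, whereas 16.0% of all genes were, and 1 member, NDUFAF4, was lower at an unadjusted p below 0.05. None passed the threshold with more than a 2-fold change, compared with 10.8% of all genes in either direction. The called genes differed by 1.16-fold to 1.57-fold. They were NDUFS7, NDUFB4, NDUFA9, NDUFA10 and NDUFA12 of complex I, SDHA of complex II, UQCRB and UQCR10 of complex III, and NDUFA4 and COX6C of complex IV. In bulk libraries, more cells of a type and more RNA per cell cannot be told apart.

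Beyond the calls, most members leaned upward by a small amount. The mean was higher with SU5402 for 57 of the 72 genes (79.2%) and lower for 15, while 51.1% of all genes tested had a higher mean. The median log2 fold change of the members was 0.11, the quartiles were 0.020 and 0.21, and the median over all genes was 0.0093. For 31 members (43.1%) every SU5402 library was above every DMSO library, which held for 24.2% of all genes. The opposite order was found for 5 members (6.94%), against 25.6% of all genes. The estimates were tight, with a median SE of 0.070, against 0.107 for all genes tested. The shares of all genes are over genes of any level and are not matched to the abundant members. How far that difference in precision enters these counts was not tested. For 65 of the 72 genes the 95% confidence interval lay wholly within a 1.5-fold change in either direction, and the other 7 were NDUFS7, UQCRB and the 5 genes of chromosome Z.

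**Figure D2:**
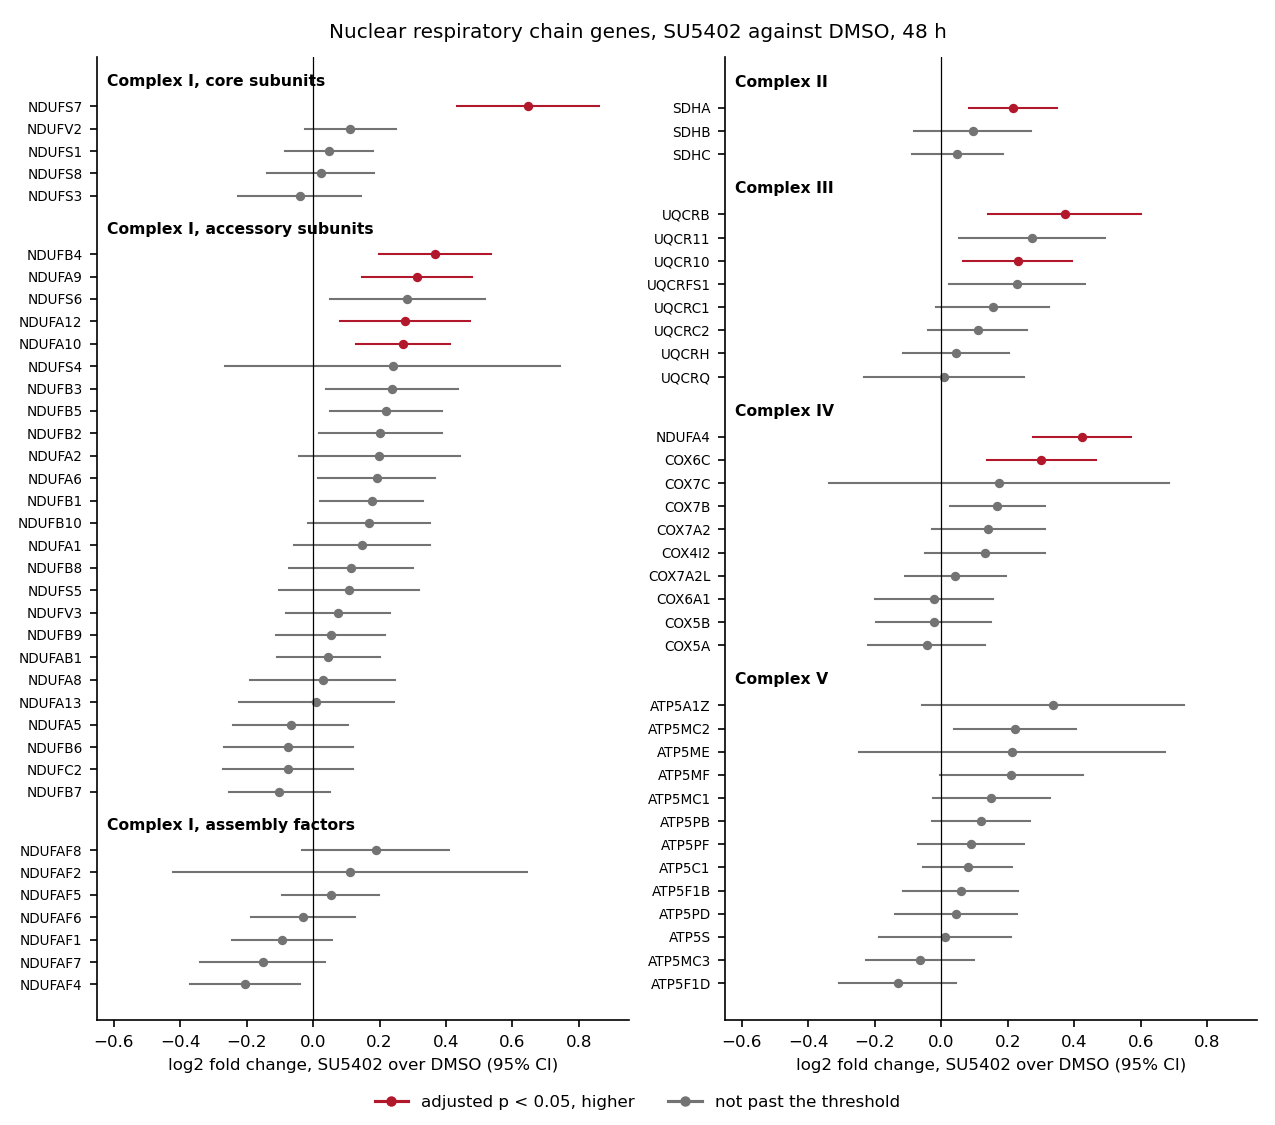
Log2 fold change of 71 of the 72 members, SU5402 over DMSO, with its 95% confidence interval from limma, grouped by complex and ordered by size. The 10 genes past the threshold (red) lie between 0.22 and 0.65, and the lowest member is NDUFAF4 at -0.20.

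**Figure D3:**
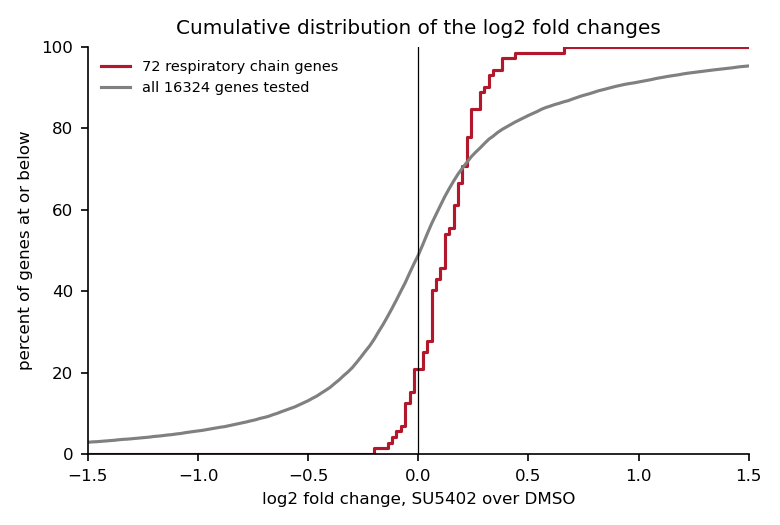
Percent of genes at or below each log2 fold change, for the 72 members (red, stepped) and all 16324 genes tested (grey). The sets are not matched for expression level. The members occupy a narrow band between -0.20 and 0.65 whose median is 0.11, while the broad curve of all genes has its median at 0.0093.

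The number of calls depended on the test. On the recovered reads, edgeR called 24 members higher (33.3%), against 17.9% of all genes, and DESeq2 also called 24, against 18.2% of all genes. Limma with an intensity trend called 24 as well, against 18.1% of all genes. Both count tests called 0 members lower, against 19.9% of all genes with edgeR and 20.3% with DESeq2. In each, 2 members were lower at an unadjusted p below 0.05. These tests, edgeR with another scaling included, agreed on 23 genes, among them all 10 named above. The 13 others, picked out by these tests after their values were seen, were NDUFA6, NDUFB1, NDUFB2, NDUFB3, NDUFB5, NDUFB10 and NDUFS6 of complex I, UQCR11, UQCRC1 and UQCRFS1 of complex III, COX7B of complex IV, and ATP5MC2 and ATP5MF of complex V. In the other direction, leaving out 1 library lowered the count to 5 without SU5402 replicate 1, 3 without SU5402 replicate 2 and 4 without SU5402 replicate 3. It was 8 without DMSO replicate 1, 3 without DMSO replicate 2 and 3 without DMSO replicate 3. These counts were 4.17 to 11.1% of the members, against 9.48 to 12.0% of all genes. In each of these fits the share of the members was below that of all genes. NDUFS7, NDUFB4 and NDUFA4 were called under each of the 19 alternatives run. Of the 10 genes, SDHA alone overlaps another annotated gene. Among the 13 others, NDUFB10 overlaps RPS2 and NDUFB1 overlaps CPSF2 on the opposite strand, genes that averaged 56520 and 2904 normalized counts. Among other genes described below, UQCRFS1, UQCRQ, ATP5S, NDUFAF1 and NDUFAF7 overlap a gene on the opposite strand. ATP5F1B and COX7C overlap one on the same strand. Reads at any of these overlaps may be shared.

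**Figure D4:**
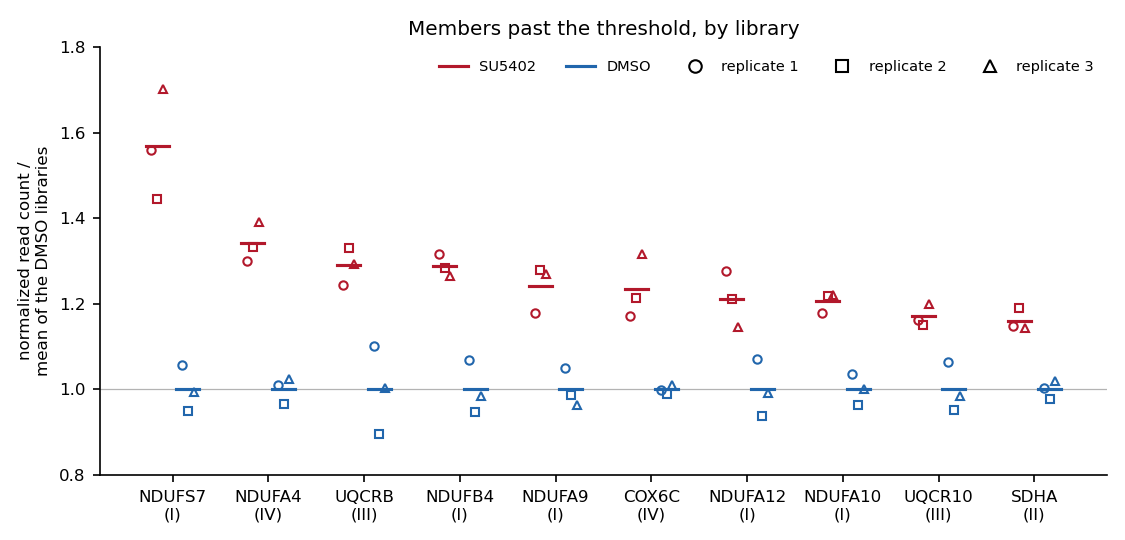
Normalized read count of each of the 10 called genes in each library, divided by the mean of the 3 DMSO libraries, with SU5402 (red) left of DMSO (blue), symbols for the replicates and bars for the means. For each gene every SU5402 library lies above every DMSO library, and NDUFS7 stands apart with a mean 1.57-fold that of DMSO.

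Complex I, NADH:ubiquinone oxidoreductase, held the gene with the largest change. NDUFS7 encodes the core subunit that carries the last iron-sulphur cluster before ubiquinone. The gene (ENSGALG00000009703, chr28:3266860-3270287 of GRCg6a) had 2799, 2594 and 3052 normalized counts in the SU5402 libraries, against 1896, 1704 and 1783 in the DMSO libraries. The lowest SU5402 library was far above the highest DMSO library. Its log2 fold change was 0.65 ± 0.085 (SE, n = 3 each, limma with Benjamini-Hochberg adjustment, adjusted p = 0.0048). The other 5 core subunits did not pass the test. NDUFS1, which carries several iron-sulphur clusters, had 7087, 6775 and 6808 normalized counts with SU5402, against 6527, 6699 and 6771 with DMSO. These values did not overlap but nearly touched, and the log2 fold change was 0.048 ± 0.053 with an interval of -0.085 to 0.18. The interval of NDUFS7 began at 0.43, above the upper end of that of NDUFS1. The median over the 6 core subunits was 0.035.

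Among the 25 accessory subunits, which surround the core and take no direct part in electron transfer, 4 were called higher (16.0%, against 14.4% of all genes), and the median log2 fold change was 0.17. The mean was higher with SU5402 for 21 of them. NDUFB4, a subunit of the membrane arm (chr1:80601454-80605982), had 3572, 3483 and 3435 normalized counts with SU5402, against 2900, 2568 and 2674 with DMSO, a log2 fold change of 0.37 ± 0.067 (limma adjusted p = 0.013). NDUFA9, which sits near the junction of the arms (chr1:73689598-73711387), had 3337, 3619 and 3597 normalized counts with SU5402, against 2974, 2793 and 2729 with DMSO, a log2 fold change of 0.31 ± 0.066 (limma adjusted p = 0.021). In both genes all 3 SU5402 libraries exceeded all 3 DMSO libraries. The call of NDUFA9 was lost without SU5402 replicates 2 or 3 and without DMSO replicates 2 or 3, at adjusted p of up to 0.084 across all alternatives. NDUFA10 and NDUFA12 are outside the rule for genes to be described and were added after their values were seen. Their log2 fold changes were 0.27 ± 0.056 and 0.28 ± 0.078, with limma adjusted p of 0.020 and 0.048. Leaving out 1 library ended the call of NDUFA10 in 5 of 6 cases and that of NDUFA12 in each, at adjusted p of up to 0.079 and 0.13 across all alternatives. NDUFB7, the most abundant gene of complex I, ran the other way without passing the test. It had 4100, 3882 and 4272 normalized counts with SU5402, against 4351, 4469 and 4320 with DMSO, a log2 fold change of -0.10 ± 0.060 (limma adjusted p = 0.26).

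The 7 assembly factors of the NDUFAF series, which help to build complex I and do not remain in it, lacked this lean. None was called in either direction by limma, by edgeR or by DESeq2. So short a list can hold 0 calls at the shares of all genes called by limma, 14.4% higher and 16.0% lower. At an unadjusted p below 0.05 limma gave 0 higher and 1 lower. Their median log2 fold change was -0.031. NDUFAF4 had 779, 826 and 767 normalized counts with SU5402, against 963, 877 and 893 with DMSO. Every SU5402 library was below every DMSO library, with a log2 fold change of -0.20 ± 0.066 (limma adjusted p = 0.070). The same order held for NDUFAF1 and NDUFAF7, so 3 of the 7 assembly factors lay wholly lower, as did 25.6% of all genes tested. The 5 members in this order also included NDUFB7 and ATP5F1D. NDUFAF1, NDUFAF7 and ATP5F1D are named after their values were seen. NDUFAF1 overlaps RTF1 and NDUFAF7 overlaps PRKD3, genes that averaged 4444 and 3681 normalized counts. Assembly factors of complex I with names outside the rule did lean upward. Log2 fold changes were 0.48 for NUBPL, 0.14 for ACAD9, 0.14 for FOXRED1, 0.11 for TIMMDC1 and 0.030 for ECSIT. Of these, NUBPL alone was called by limma (adjusted p = 0.0082), and they were grouped after their values were seen. Whether assembly factors differ from accessory subunits in their response was not tested.

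Complex II, succinate dehydrogenase, also belongs to the citric acid cycle. SDHA, its flavoprotein (chr2:85662894-85678854), had 4838, 5019 and 4816 normalized counts with SU5402, against 4223, 4122 and 4295 with DMSO. The treatments were clearly apart, with a log2 fold change of 0.22 ± 0.053 (limma adjusted p = 0.032). SDHB, the iron-sulphur subunit, had 2500, 2466 and 2761 normalized counts with SU5402, against 2497, 2331 and 2404 with DMSO, a log2 fold change of 0.094 ± 0.070. SDHC, a membrane anchor, had 2931, 2881 and 2738 normalized counts with SU5402, against 2786, 2728 and 2750 with DMSO, a log2 fold change of 0.048 ± 0.055. The libraries overlapped in SDHB and SDHC, neither of which passed the test. The call of SDHA was lost when any 1 of the 6 libraries was left out, at adjusted p of up to 0.11 across all alternatives. The gene overlaps CCDC127 on the opposite strand.

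Complex III, the cytochrome bc1 complex, was the most uniform of the larger complexes. All 8 of its nuclear genes had a higher mean with SU5402, as did 51.1% of all genes tested. For 6 of the 8, every SU5402 library was above every DMSO library, against 24.2% of all genes. The median log2 fold change was 0.19. UQCRB, a small subunit at the ubiquinone-binding part (chr2:126714498-126720504), had 3332, 3562 and 3460 normalized counts with SU5402, against 2949, 2395 and 2685 with DMSO. The DMSO libraries spread more than the SU5402 libraries but stayed below them, and the log2 fold change was 0.37 ± 0.092 (limma adjusted p = 0.033). UQCR10, another small subunit (chr15:11319653-11321105), had 2935, 2905 and 3030 normalized counts with SU5402, against 2688, 2399 and 2483 with DMSO, a log2 fold change of 0.23 ± 0.065. Its limma adjusted p, 0.0499, was just inside the threshold. Both calls were lost without each of SU5402 replicates 1, 2 and 3 and DMSO replicates 2 and 3, where 0 genes of complex III were called, at adjusted p of up to 0.097 for UQCRB and 0.14 for UQCR10 across all alternatives. edgeR and DESeq2 called 5 of the 8 genes higher, against 17.9% and 18.2% of all genes.

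Larger subunits of complex III were among those that lay apart without a call. UQCRFS1, the Rieske iron-sulphur protein, had 5965, 6056 and 6667 normalized counts with SU5402, against 5739, 5204 and 5015 with DMSO, a log2 fold change of 0.23 ± 0.082 (limma adjusted p = 0.090). UQCRC1, a core protein, had 8309, 7381 and 7803 normalized counts with SU5402, against 7281, 6895 and 6904 with DMSO, a log2 fold change of 0.16 ± 0.068 (limma adjusted p = 0.14). In neither gene did the treatments overlap. UQCRH and UQCRQ, the extremes of the complex in FPKM, overlapped between treatments and had log2 fold changes of 0.043 ± 0.063 and 0.0081 ± 0.096.

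In complex IV a pair of genes rose and the rest split. NDUFA4 (chr2:26015143-26019015) had 5026, 5154 and 5376 normalized counts with SU5402, against 3905, 3730 and 3963 with DMSO. The gap between the treatments was wider than the spread within either, and the log2 fold change was 0.42 ± 0.058 (limma adjusted p = 0.0056), the second largest of the 72. COX6C (chr2:128186637-128192313) had 8701, 9009 and 9788 normalized counts with SU5402, against 7426, 7348 and 7514 with DMSO, a log2 fold change of 0.30 ± 0.065 (limma adjusted p = 0.023). The call of COX6C was lost without SU5402 replicate 2 and without each DMSO replicate, with an adjusted p of up to 0.073 across all alternatives. The other 8 genes ranged between -0.044 and 0.17. COX5A, a subunit on the matrix side, had 5114, 5224 and 5670 normalized counts with SU5402, against 5801, 5387 and 5317 with DMSO. The libraries overlapped, with a log2 fold change of -0.044 ± 0.070 and an interval of -0.22 to 0.13.

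A gene listed as COX4I2 had 7646, 7518 and 8352 normalized counts with SU5402, against 7563, 6933 and 6974 with DMSO, and its log2 fold change was 0.13 ± 0.072. The RefSeq table for a later assembly, GRCg7b, gives COX4I2 as another name of COX4I1, the common form of subunit 4, so this row is not taken as the isoform known from hypoxic mammalian tissue. COX7A2L, which in mammals helps join complexes into supercomplexes, was the lowest of complex IV at 48.8 FPKM and had a log2 fold change of 0.042 ± 0.060.

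Complex V, the ATP synthase, had no gene called by limma among 13, where 14.4% of all genes were called higher and 16.0% lower. At an unadjusted p below 0.05 limma gave 1 higher and 0 lower, against 3403 and 3564 of the 16324 genes tested. The lowest limma adjusted p was 0.074, of ATP5MC2. edgeR and DESeq2 each called 3 higher, against 17.9% and 18.2% of all genes. Each called 0 lower, against 19.9% and 20.3% of all genes. The median log2 fold change was 0.089, and 11 of the 13 means were higher with SU5402. Every SU5402 library was above every DMSO library for 6 of the 13 (46.2%, against 24.2% of all genes). The opposite order held for 1 (7.69%, against 25.6% of all genes). ATP5F1B, the catalytic beta subunit, had 37070, 34901 and 38567 normalized counts with SU5402, against 37022, 33751 and 35387 with DMSO. The treatments overlapped, and its interval ran between -0.11 and 0.23.

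The ring of identical c subunits, which turns as protons pass, is made from 3 genes, ATP5MC1, ATP5MC2 and ATP5MC3, which in mammals encode the same mature protein. ATP5MC1 had 177, 168 and 189 FPKM with SU5402, against 159, 155 and 167 with DMSO, a log2 fold change of 0.15 ± 0.070 (limma adjusted p = 0.17). ATP5MC2 had 111, 107 and 122 FPKM with SU5402, against 102, 94.5 and 95.3 with DMSO, a log2 fold change of 0.22 ± 0.073. ATP5MC3 had 123, 125 and 137 FPKM with SU5402, against 138, 133 and 132 with DMSO, a log2 fold change of -0.064 ± 0.065 (limma adjusted p = 0.50). The first pair lay higher in all SU5402 libraries, as did 24.2% of all genes tested, and the third overlapped. Their sum was 420 ± 24.6 FPKM with SU5402 and 392 ± 8.8 FPKM with DMSO (SD, n = 3 each). Within that sum, ATP5MC3 made up 29.9, 31.3 and 30.6% with SU5402, against 34.5, 34.8 and 33.5% with DMSO. The share of ATP5MC2 was 27.0, 26.8 and 27.2% with SU5402, against 25.6, 24.8 and 24.1% with DMSO. The shares of ATP5MC2 and ATP5MC3 did not overlap between treatments. That of ATP5MC1 did, at 43.1, 41.8 and 42.2% with SU5402, against 39.9, 40.5 and 42.3% with DMSO. All are parts of the same sum and do not vary independently. The shares were computed after the values of the 3 genes were seen and were not tested.

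**Figure D5:**
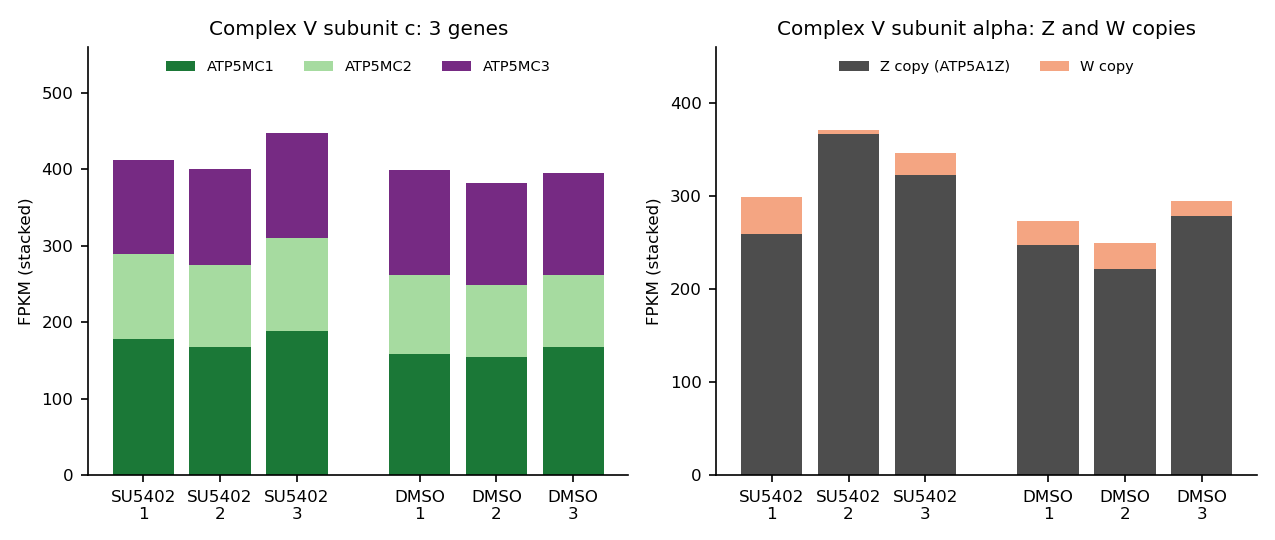
FPKM in each library, SU5402 left of DMSO, for the 3 genes of subunit c (left) and the Z and W copies of subunit alpha (right), stacked so that the height of a bar is their sum. The ATP5MC3 part is 29.9 to 31.3% of the bar with SU5402 and 33.5 to 34.8% with DMSO, and the W copy nearly vanishes in SU5402 replicate 2.

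The alpha subunit of the ATP synthase is encoded on both sex chromosomes of birds. Males are ZZ and females ZW, and the embryos' sex is not given in the labels. The Z copy, ATP5A1Z (chrZ:2151248-2159334), had 17502, 24691 and 21768 normalized counts with SU5402, against 16708, 14939 and 18777 with DMSO, a log2 fold change of 0.34 ± 0.16 (limma adjusted p = 0.17). It was called by edgeR (adjusted p = 0.019) and not by DESeq2 (adjusted p = 0.098). A W row without a symbol, described as the same subunit (chrW:1391452-1417746), had 5290, 680 and 3089 normalized counts with SU5402, against 3460, 3734 and 2160 with DMSO. Where the W copy was lowest, in SU5402 replicate 2, the Z copy was highest. The sum of both was 22792, 25371 and 24858 with SU5402, against 20168, 18673 and 20937 with DMSO, without overlap. The sum was formed after the values were seen and was not tested. The copies are related in sequence, and how reads that fit both were counted is not given in the sources used here.

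The other members on chromosome Z were NDUFS4, an accessory subunit, NDUFAF2, an assembly factor, COX7C, a small subunit of complex IV, and ATP5ME, subunit e of the ATP synthase. With ATP5A1Z included, 0 of the 5 were called by limma and 0 had an unadjusted p below 0.05. In each of the 5, SU5402 replicate 1 was lowest within its treatment, and DMSO replicate 2 was lowest within its own. Their SD on the log2 scale had a median of 0.32 with SU5402 and 0.18 with DMSO, against 0.074 and 0.067 for the 67 autosomal members. The 718 genes tested on chromosome Z shifted likewise as a group. Their median stood at -0.050, 0.28 and 0.082 against the DMSO mean in SU5402 replicates 1, 2 and 3, and at -0.016, -0.063 and 0.086 in the DMSO replicates. Genes of chromosome W ran the opposite way, with a median of -1.85 in SU5402 replicate 2. Once the median Z gene of each library was subtracted, ATP5A1Z alone of the 5 had no overlap between treatments, with a mean difference of 0.23 on the log2 scale. This subtraction was not planned. Without it, 24.2% of all genes tested had every SU5402 library above every DMSO library. The part of the mix of sexes in the values of Z and W genes was not tested.

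Libraries of one treatment also differed in the members together. SU5402 replicate 3 was the highest of its treatment for 48 of the 72 genes (66.7%, against 33.3% of all genes tested). DMSO replicate 2 was the lowest of its treatment for 48 (66.7%, against 32.5% of all genes). DMSO replicate 1 was the highest for 46 (63.9%, against 36.4% of all genes). Counts over the members are therefore not counts of independent observations. Summed over the members, their reads made up 0.982, 0.997 and 1.04% of each SU5402 library and 0.915, 0.866 and 0.904% of each DMSO library. As summed normalized counts they came to 323111, 326388 and 342920 with SU5402, against 313345, 293229 and 306784 with DMSO. Every SU5402 library was above every DMSO library on both scales, but in normalized counts the gap between the treatments was smaller than the range within either.

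Neighbouring parts of mitochondrial metabolism are given for comparison, each from a list named with results of these data known. Cytochrome c (CYCS), which carries electrons between complexes III and IV, had 5528, 4990 and 5241 normalized counts with SU5402, against 4353, 4364 and 4519 with DMSO. It rose without overlap, with a log2 fold change of 0.25 ± 0.062 (limma adjusted p = 0.033). Of 16 genes of the citric acid cycle and pyruvate dehydrogenase, 6 were called higher (37.5%, against 14.4% of all genes) and 0 lower, with a median of 0.17. They were CS, citrate synthase, at 0.51 ± 0.060, DLD at 0.51 ± 0.073, DLST, MDH2, FH and IDH3A. Of 31 assembly factors whose names fall outside the rule, 5 were called higher (16.1%, near the share of all genes) and 0 lower, with a median of 0.052. The largest change was that of ATPAF1, a chaperone for the F1 part of the ATP synthase. It had 2160, 2664 and 2423 normalized counts with SU5402, against 1212, 1361 and 1340 with DMSO, a log2 fold change of 0.89 ± 0.10 (limma adjusted p = 0.0030). NUBPL, which helps place iron-sulphur clusters in complex I, rose by 0.48 ± 0.075 on the log2 scale.

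Of 13 regulators of mitochondrial genes tested, 5 were called lower (38.5%, against 16.0% of all genes) and 0 higher (against 14.4%). Their median log2 fold change was -0.22. In mammals, NRF1 and the GABPA and GABPB1 proteins bind promoters of many respiratory chain genes. NRF1 had 710, 747 and 856 normalized counts with SU5402, against 975, 940 and 998 with DMSO, a log2 fold change of -0.34 ± 0.087 (limma adjusted p = 0.038). GABPA had 4658, 5198 and 4611 normalized counts with SU5402, against 6617, 6522 and 6829 with DMSO, a log2 fold change of -0.47 ± 0.070 (limma adjusted p = 0.0072). The treatments did not overlap in either gene, but for NRF1 the gap was smaller than the range of the SU5402 libraries. PPRC1, a coactivator that works with NRF1 in mammals, fell by 0.57 ± 0.069 on the log2 scale, POLG, the mitochondrial DNA polymerase, by 0.26 ± 0.068, and GABPB1 by 0.22 ± 0.060. TFAM, which packages mitochondrial DNA, had 3455, 3346 and 3335 normalized counts with SU5402, against 3273, 3328 and 3296 with DMSO, and an interval of -0.092 to 0.16. Among mitochondrial ribosomal proteins 5 of 66 were called higher (7.58%) and 3 lower (4.55%), both below the shares of all genes, with a median of 0.085. Of 16 import subunits, 0 were called higher and 1, TOMM20, lower (6.25%).

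The mitochondrial genome supplies further subunits of complexes I, III, IV and V. Of its 13 protein-coding genes, 11 were called higher (84.6%, against 14.4% of all genes) and 0 lower (against 16.0%). Their median log2 fold change was 0.37. That is above the 0.11 of the nuclear members, a difference that was not tested.

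Markers of several cell types differed between the treatments at the same time, and their part in the values above was not tested. Of 16 skeletal muscle markers tested, 15 were called higher (93.8%, against 14.4% of all genes), with a median log2 fold change of 2.17. The summed level of these markers was 8475 to 11375 normalized counts with SU5402, against 1810 to 2200 with DMSO. All 8 endothelial markers tested were called lower, against 16.0% of all genes, with a median of -3.19. Their summed level was 2213 to 2467 normalized counts with SU5402, against 19650 to 20234 with DMSO. All 9 ectoderm markers and 8 of 9 red blood cell markers were called higher, with medians of 1.06 and 1.67, as were 4 of 6 macrophage and 1 of 4 glial markers. Limb mesenchyme markers, which stand for the labelled tissue, were called higher for 2 and lower for 4 of 10, with a summed level of 96343 to 104517 normalized counts with SU5402, against 85630 to 89182 with DMSO. None of these marker genes was at 0 in every library.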

How the data were processed

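For each of the 6 libraries, the authors mapped reads to GRCg6a with HISAT2 (version 2.0.5), counted them on genes with featureCounts (version 1.5.0-p3) and compared treatments with DESeq2 (version 1.20.0), per the labels and methods. The signal values the authors deposited are reads divided by a DESeq2 size factor (normalized counts), and their FPKM values divide these by gene length and 1 total, 33590126, shared by all libraries, so FPKM carries no other scaling. The deposited fold changes and p-values of the authors' comparison were not used. Within a tolerance of 0.01, 100% of the normalized values were whole multiples of 1 read, which gave the reads.

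Limma (version 3.58.1, R 4.3.3) was run without an intensity trend on log2(normalized count + 1) for 16324 genes that reached 10 in 3 or more libraries, with Benjamini-Hochberg adjustment over all of them. edgeR (version 4.0.16) and DESeq2 (version 1.42.0) on recovered reads were alternatives. The scripts were tested on simulated counts. Libraries of one treatment differed by 8.50 to 14.2 times counting variance per gene. Same-numbered replicates of the treatments deviated with correlations of 0.0388, 0.0032 and 0.0569, and differently numbered ones with -0.067 to 0.029. The numbers were not used as pairs in the main fit.

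Genes described singly were the 3 members called with the largest rise or fall per complex, catalytic and isoform genes, the FPKM extremes, and members on Z or W; 1 member is not reported singly here. Members and lists were chosen with earlier results of these data known. Of the members, 18 overlap another annotated gene, 15 of them on the other strand, and whether counting used strand is not given in the sources used here. Promoter and protein sequences were not used here.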

Additional observations from a re-analysis of the deposited data

How the results depend on the processing

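No member was called lower under any of the 19 alternatives run, where 9.75 to 20.3% of all genes were. None passed 2-fold under any of them, and no called gene changed direction. The count of members called higher, 10, was 6 without a filter, 20 with limma on CPM scaled by library totals, and 24 with edgeR (TMM or RLE), DESeq2 or limma with an intensity trend, and ranged between 3 and 8 with 1 library left out. Of all genes, 9.19% were called higher without a filter, 19.5% with library totals and 9.48 to 12.0% with 1 library left out. For complex I, 5 became 11 with library totals, 12 with the last 4 tests, and 2 to 5 with 1 library left out. For complex II, 1 became 0 without a filter and 0 with any library left out. For complex III, 2 became 0 without a filter, 4 with library totals, 5 with the last 4 tests and 0 to 2 with 1 library left out. For complex IV, 2 became 3 with library totals and with the last 4 tests, and 1 to 2 with 1 library left out. For complex V, 0 became 1 with library totals or limma on FPKM and 3 with the last 4 tests. The median log2 fold change of complex II, 0.094, was 0.14 with library totals and 0.070 to 0.12 with 1 library left out. The cause was not tested where fewer libraries or another set of genes does not show it.

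Whether samples with the same replicate number came from the same experiment is not given in the labels or methods. With the replicate block 3 members were called higher, 2 of complex I, 1 of complex IV, and 0 each of complexes II and III, and 1630 of all genes were called higher in place of 2351. Leaving out genes of chromosomes W, Z and MT, an alternative chosen after seeing the data, left 10 calls among 67 members. The median over all genes moved to 0.052 with library totals, where 63 members had a higher mean.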

Other observations

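Rows without a symbol were searched by description for subunits of complexes I and V only. The search found 8, the W copy of subunit alpha included. None was called by limma.

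Of the 8 members on chromosome 2, 4 were called higher (NDUFA4, COX6C, UQCRB and SDHA), whereas 16.3% of the 1369 genes tested on that chromosome were. The chromosome was singled out after the values were seen and no test was made. Over the 72 genes, log2 fold changes had Spearman correlations of -0.16 with gene length and 0.084 with mean FPKM, across genes that share the same libraries.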
